A study of Mus musculus with 12 samples.

Results

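Mouse embryonic fibroblasts labelled as Vps15 knockout and fibroblasts labelled as wild type were compared after both had been starved in EBSS. The comparison used 6 of the 12 libraries of the series, 3 labelled Vps15KO with 2 h in EBSS and 3 labelled WT with 2 h in EBSS, chosen by these labels and by no measured value. All cells, the controls included, carried floxed Vps15 alleles (Vps15f/f). The plates were 90% confluent, in DMEM with 4.5 g/L glucose and 10% fetal bovine serum. WT cells had received adeno-GFP and Vps15KO cells adeno-CRE, the vector for the recombinase that cuts out floxed DNA, and both were sampled 5 days later. EBSS is a salt solution without amino acids, while the growth medium holds amino acids, serum and 4.5 g/L glucose. The glucose level of EBSS is not given here, and no absence of glucose is implied. Effects of amino acids, serum and glucose cannot be told apart between the 2 media. The other 6 libraries came from the same cells in basal growth medium, 3 WT and 3 Vps15KO. They are used here to test where the genotype difference itself depended on the medium, and the basal differences use no library of the EBSS groups. All 12 libraries share an estimate of the spread in the fit, so the basal libraries also bear on the SE, p-values and calls in EBSS. The effect of the CRE vector and that of losing Vps15 cannot be told apart in this design, and which exons are cut out is not named in the labels. The library names read pLEX_CRE and pLEX_GFP without saying what pLEX is. Nothing in the labels says that the 3 libraries of a group came from separate cultures, so p-values measure the spread between these libraries, which may be technical.

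Vps15 is encoded by Pik3r4 and is the regulatory subunit of class 3 PI3K, the lipid kinase whose catalytic subunit is Vps34 (Pik3c3). Together with Beclin 1 (Becn1) and either Atg14 or Uvrag, the pair makes the phosphoinositide PI3P, which recruits the proteins that build autophagosomes and sort cargo on endosomes. Cells without amino acids normally shut down mTORC1, raise autophagy and translate ATF4, the factor that turns on amino acid synthesis and uptake. In liver, class 3 PI3K is also known to bear on PPAR-dependent genes of fat oxidation.

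Values are given as normalized counts, the reads worked back from the deposited values and divided by the size factor of the library. Log2 differences are differences of the deposited values, Vps15KO minus WT, with the standard error (SE) of the fit, and they understate ratios of genes with few reads. A gene is called higher or lower at an adjusted p under 0.05 in limma with Benjamini-Hochberg adjustment over all 14279 genes tested. The 6 EBSS libraries held 21551039 to 21698584 reads in genes. Their first principal component took 86.3% of the variance and separated the genotypes, and the second took 4.72%. WT EBSS replicate 1 stood apart from the other WT EBSS libraries (chi-square per gene 8.26 and 11.9, against 3.83 between those others), and WT basal replicate 2 did so among the WT basal libraries (22.9 and 22.6, against 3.2). Several results that rest on WT EBSS replicate 1 are also given without it. Without WT basal replicate 2 the difference between media was called for 1659 genes upward and 1516 downward, against 1363 and 1177 with it. The EBSS comparison then called 4586 genes higher and 4430 lower, against 4201 and 3973 with it. With only the 6 EBSS libraries fitted, it called 4516 and 4338. Single genes and lists are not given without WT basal replicate 2.

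In EBSS, 4201 genes were higher in Vps15KO (29.4% of those tested) and 3973 were lower (27.8%), and 450 and 298 passed when a log2 difference of at least 1 was also required. The counts of every list below are to be read against these 2 shares, and a list near them does not stand out from all genes. In 9469 genes (66.3%) all 3 values of one genotype lay above all 3 of the other. The median difference was -0.00076, with 5th and 95th percentiles of -0.751 and 0.839. Scaling by size factors places the middle near 0, so a shift shared by all genes could not be seen. Pik3r4 itself, at chr9:105642995-105687655 (mm10), had 959, 891 and 834 normalized counts in WT and 623, 602 and 672 in Vps15KO. The groups were apart, with a difference of -0.48 ± 0.07 (limma, adjusted p = 1.03e-05). Reads from cut and intact alleles were counted together, and neither the recombined fraction nor the protein was measured. In basal medium 4184 genes were higher (29.3%) and 4169 lower (29.2%). Of the 450 genes that were higher by at least 1 in EBSS, 420 were called higher in basal medium too, and of the 298 lower ones 284 were called lower there. Across the genes tested the differences in the 2 media had a Pearson correlation of 0.802, a description across genes, which are not independent replicates.

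**Figure D1:**
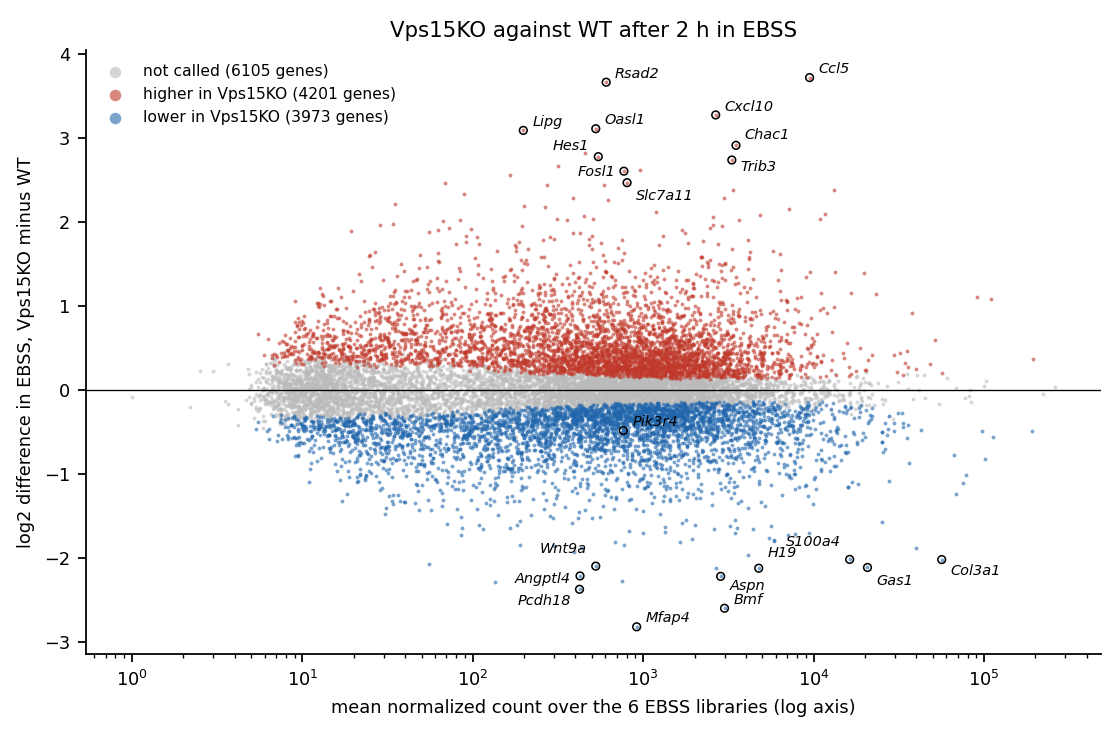
Log2 difference between Vps15KO and WT in EBSS (vertical axis) against the mean normalized count over the 6 EBSS libraries (log axis), 1 point per gene tested, coloured by call. Chemokine and interferon-stimulated genes (Ccl5, Rsad2, Cxcl10, Oasl1) and ATF4 targets (Chac1, Trib3, Slc7a11) lie at the top, and matrix genes (Mfap4, Aspn, Col3a1) and the BH3-only gene Bmf at the bottom.

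The largest rises among the genes picked by rule in starved Vps15KO cells were in Ccl5, Rsad2, Cxcl10 and Oasl1, chemokine and antiviral genes. Large rises were also seen in Lipg (3.09), P2rx3 (2.82), Ms4a4d (2.56) and Heatr9 (2.46), and in genes of other lists given below. Ccl5, a chemokine that draws T cells and monocytes, had 1450, 1155 and 1327 normalized counts in WT and 16329, 17334 and 19145 in Vps15KO. Rsad2, which encodes the antiviral enzyme viperin and lies at chr12:26442743-26456452, had 71.5, 62.1 and 65.2 in WT and 1128, 1165 and 1143 in Vps15KO. The 3 Vps15KO libraries were close to each other for both genes and far above every WT library. The log2 differences were 3.72 ± 0.10 for Ccl5 (limma, adjusted p = 3.66e-15) and 3.67 ± 0.14 for Rsad2 (limma, adjusted p = 4.85e-13), the latter a ratio of 17.3. Cxcl10, a chemokine named for its induction by interferon, stood at 571, 460 and 405 counts in WT and 4971, 4637 and 4912 in Vps15KO (3.28 ± 0.13). Oasl1 rose by 3.11 ± 0.12 and Oas3 by 2.44 ± 0.11; both belong to the family of oligoadenylate synthetases and their relatives, which respond to double-stranded RNA.

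Of 39 genes on the list of the type I interferon response 38 were tested, and 34 of them were higher in Vps15KO in EBSS, with a median of 0.98 against -0.00076 over all genes tested. The other 4, Trim25, Isg20 and Ifit1bl1 among them, were not called. In basal medium 30 were higher and 1 lower, with a median of 0.58. The difference between media was called for 14 members, 13 of them with the larger value in EBSS, among them Mx2 (1.61 in EBSS, 0.38 in basal medium), Oas1b (1.14 and 0.08), Isg15 (0.81 and 0.08) and Irf9 (0.65 and -0.03), the DNA-binding part of the complex that drives these genes. Isg15, a ubiquitin-like protein conjugated to others during infection, had 2205, 1909 and 1367 counts in WT EBSS and 3190, 3185 and 3135 in Vps15KO EBSS, while in basal medium WT had 2725, 3706 and 2996 and Vps15KO 3195, 3501 and 3223. The groups thus did not overlap in EBSS and did overlap in basal medium, and the difference of 0.73 ± 0.18 between media passed the test (limma, adjusted p = 0.00764). Rsad2 stood at 3.67 in EBSS and 3.58 in basal medium.

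Promoters of 28 of the tested members were found in RefSeq (GRCm38.p6), each taken from 250 bases before to 50 bases after the start. The core of the interferon-stimulated response element, TTTCNNTTT on either strand, was present in 22 of them (78.6%), in 9.5% of all tested genes with a promoter and in 10.6% of all 32851 promoters. The motif was chosen after the values had been seen, and a match is a description of letters, not a bound site. The list is made of genes already known for this response, so its share reflects the choice of list and does not bear on the rise in Vps15KO. Among the 22, Isg20 (-0.01) and Ifit1bl1 (-0.07) were not called in EBSS. The windows of 5 members are shown because they belong to members with a large or medium-dependent rise. Each is 100 bases long, 5′ to 3′ on the strand of the gene, and capitals mark every match on either strand.
Rsad2, chr12:26456506-26456605, minus strand: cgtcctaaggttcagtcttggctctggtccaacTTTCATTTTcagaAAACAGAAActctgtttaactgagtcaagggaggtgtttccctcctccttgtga
Cxcl10, chr5:92349040-92349139, minus strand: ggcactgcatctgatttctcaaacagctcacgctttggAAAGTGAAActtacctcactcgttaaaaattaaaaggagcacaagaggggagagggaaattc
Oasl1, chr5:114923038-114923137, plus strand: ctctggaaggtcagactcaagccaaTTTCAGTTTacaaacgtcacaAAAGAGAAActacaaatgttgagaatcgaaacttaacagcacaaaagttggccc
Oas3, chr5:120777680-120777779, minus strand: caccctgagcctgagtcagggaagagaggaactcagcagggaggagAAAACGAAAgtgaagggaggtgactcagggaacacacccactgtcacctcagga
Isg15, chr4:156200830-156200929, minus strand: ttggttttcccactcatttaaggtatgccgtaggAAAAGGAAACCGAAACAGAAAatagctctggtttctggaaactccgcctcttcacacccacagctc
Rsad2 and Oasl1 hold 2 separate matches, facing opposite ways, and Isg15 holds 3 that overlap in 1 run. The last match ends 98 bases before the start of Rsad2, 203 before that of Cxcl10, 147 before that of Oasl1, 65 before that of Oas3 and 56 before that of Isg15.

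Of 25 tested nucleic acid sensors and interferon-inducing factors 18 were higher and 1 was lower, with a median of 0.57 in EBSS and 0.17 in basal medium. Ifih1 is also on the list of the interferon response, so the counts of the 2 lists are not independent. Irf1 rose by 1.44 and the feedback inhibitor Tnfaip3 by 1.31. Ifih1, the RNA sensor MDA5, had 556, 466 and 369 counts in WT and 1108, 1053 and 999 in Vps15KO (1.15 ± 0.10), and Irf7, the factor that amplifies interferon production, rose by 1.12 ± 0.09. The DNA sensor gene Cgas rose by 0.58, while its partner Sting1 had a difference of -0.11 and was not called. The lower member was Ifnar1, a chain of the interferon receptor, at -0.41. Ifnb1 itself was too low to test, with 0 normalized counts in each WT EBSS library and 0.983, 0 and 1.98 in Vps15KO. A count of 0 allows up to 3 reads in a library for counting error alone.

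Genes of antigen presentation by MHC class I, the display of peptides to cytotoxic T cells, were mostly higher as well. Of 20 listed genes 18 were tested, 14 higher and 2 lower, with a median of 0.83 in EBSS and 1.05 in basal medium. H2-K1, a classical class I heavy chain at chr17:33996012-34000619, had 1101, 1072 and 927 counts in WT and 4195, 4254 and 3918 in Vps15KO, a difference of 1.97 ± 0.09 (limma, adjusted p = 3.82e-12) with no overlap. The immunoproteasome subunits Psmb9 and Psmb8, which cut the peptides, rose by 1.90 and 1.87, the peptide transporter Tap1 by 1.49 and the transactivator Nlrc5 by 1.52. H2-Q4 rose by 2.18, but class I genes have near-identical copies whose reads the counting may have assigned unevenly. The lower members were the lectin chaperone Calr (-0.47) and its partner Pdia3 (-0.39), which also serve protein folding in general. Among 23 tested chemokines and cytokines 11 were higher and 6 lower: Il6 went from 3.02, 4.07 and 4.08 counts to 43.3, 45.4 and 47.4 (1.59 ± 0.12), Lif rose by 1.33 and Ccl2 by 1.18, while Cxcl12, a chemokine that stromal cells make for hematopoietic cells, was lower by -0.97.

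**Figure D2:**
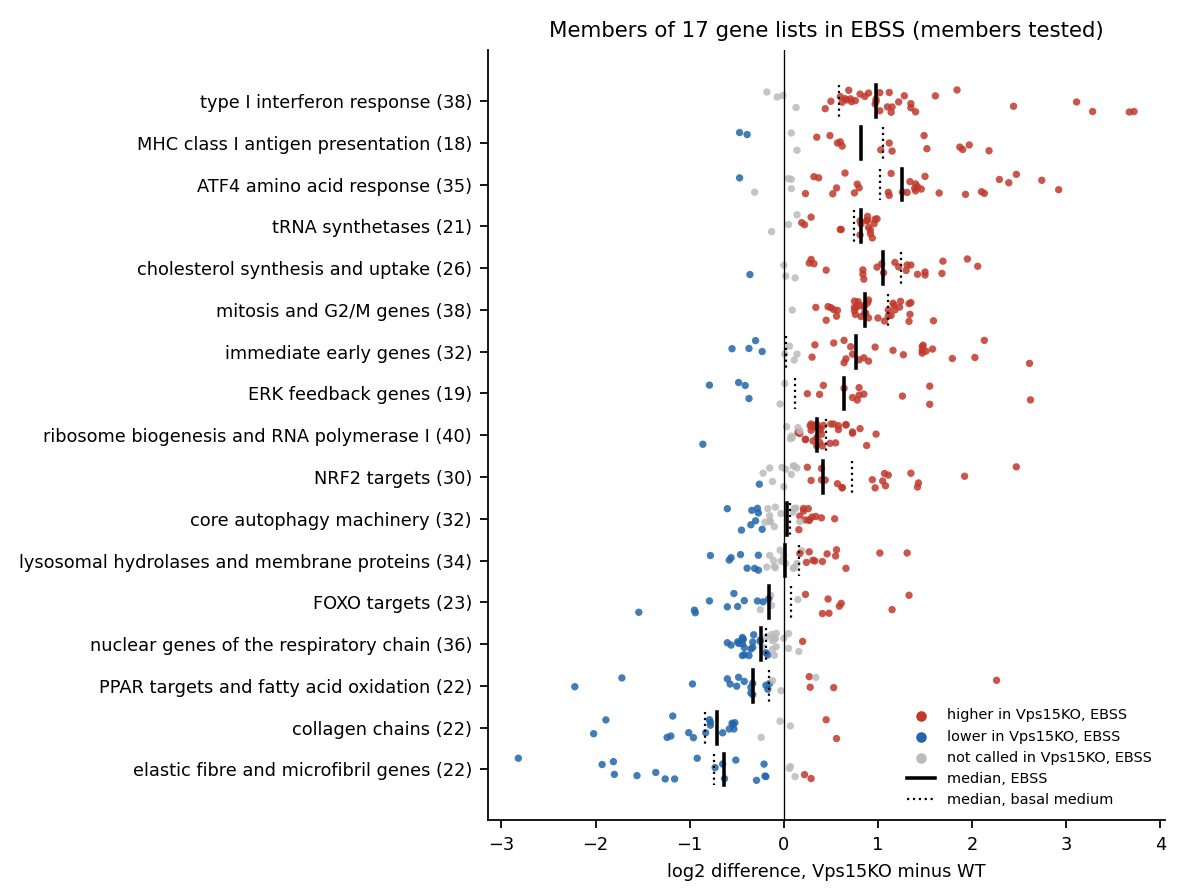
Log2 difference between Vps15KO and WT in EBSS (horizontal axis) for each tested member of 17 gene lists, number of members in brackets, coloured by call. The solid bar is the list's median in EBSS and the dotted line its median in basal medium: 0.98 and 0.58 for interferon genes, 0.77 and 0.02 for immediate early genes, -0.71 and -0.83 for collagens.

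Genes of the amino acid response stood mostly higher in starved Vps15KO cells than in starved WT cells. Of 36 listed ATF4 targets 35 were tested, 30 higher and 1 lower, with a median of 1.26 in EBSS and 1.02 in basal medium. Atf4, at chr15:80255184-80257545, had 9655, 10539 and 12428 counts in WT and 28339, 28853 and 28572 in Vps15KO, 1.40 ± 0.09 in EBSS (limma, adjusted p = 5.3e-10) and 0.76 ± 0.09 in basal medium. The Vps15KO libraries were nearly equal and all lay above the WT range, and the difference between media of 0.64 ± 0.13 passed the test (limma, adjusted p = 0.00256). Chac1, which degrades glutathione and is among the most sensitive ATF4 targets, had 645, 763 and 1020 counts in WT and 6008, 6162 and 6388 in Vps15KO. In basal medium WT stood at 1186, 1695 and 1284 and Vps15KO at 6366, 6421 and 6028. The Vps15KO level was thus similar in the 2 media and the WT level lower in EBSS. The genotype difference of 2.92 ± 0.13 in EBSS (limma, adjusted p = 1.93e-12) exceeded that of 2.17 ± 0.13 in basal medium by 0.75 ± 0.18 (limma, adjusted p = 0.00685).

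Other members covered each arm of the response. The pseudokinase gene Trib3 rose by 2.74 ± 0.14, the factor Ddit3 (CHOP), which promotes death under lasting stress, by 2.29 ± 0.13, and Ppp1r15a, which restores translation, by 2.39. Asns, asparagine synthetase, had 2862, 2562 and 2841 counts in WT and 8934, 8497 and 8685 in Vps15KO, 1.65 ± 0.08 in EBSS and 1.56 ± 0.08 in basal medium. Slc7a11, the cystine importer, had 292, 196 and 200 counts in WT and 1462, 1336 and 1332 in Vps15KO. WT EBSS replicate 1 was the highest of the WT libraries and still far below the Vps15KO range. Its difference of 2.47 ± 0.11 was smaller than the 3.06 ± 0.11 of basal medium (limma, adjusted p = 0.0119 for the difference between media). Sesn2, which signals leucine shortage to mTORC1, rose by 1.93 in EBSS and 0.89 in basal medium. The lower member was Ddit4, an inhibitor of mTORC1 also known as REDD1, with 2122, 2023 and 2051 counts in WT and 1465, 1460 and 1541 in Vps15KO (-0.47 ± 0.07).

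The C/EBP-ATF response element, TGATGNAA on either strand, was in 10 of 29 promoters of tested members (34.5%), in 2.83% of tested genes with a promoter and in 3.97% of all promoters. Pycr1, at 0.08 in EBSS, was among the 10. The windows of 3 members are shown, in the same form and with the same caution, because these genes carry 3 arms of the response: glutathione breakdown, cystine import and asparagine synthesis.
Chac1, chr2:119351003-119351102, plus strand: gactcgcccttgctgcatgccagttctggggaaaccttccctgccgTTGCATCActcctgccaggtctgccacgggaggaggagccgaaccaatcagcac
Slc7a11, chr3:50443614-50443713, minus strand: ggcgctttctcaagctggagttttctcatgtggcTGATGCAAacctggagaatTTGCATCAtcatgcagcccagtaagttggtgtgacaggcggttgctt
Asns, chr6:7693210-7693309, minus strand: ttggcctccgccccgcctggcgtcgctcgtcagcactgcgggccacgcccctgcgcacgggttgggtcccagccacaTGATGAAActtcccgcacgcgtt
Slc7a11 holds 2 matches that face each other. The last match ends 185 bases before the start of Chac1, 39 before the Slc7a11 start in the RefSeq promoter table, which lies inside the span of the gene, and 15 before that of Asns. The other 5 motifs searched, each for 1 list, gave the antioxidant element TGACNNNGC in 10 of 24 NRF2 target promoters (41.7%, against 16.8% of tested genes) and the cell cycle homology region TTTGAA in 21 of 31 mitosis promoters (67.7%, against 14.6%). The E-box CACGTG was in 5 of 16 clock promoters (31.2%, against 11.6%) and the cAMP element TGACGTCA in 2 of 25 immediate early promoters (8.0%, against 3.47%). The sterol element TCACNCCAC was in 1 of 18 cholesterol gene promoters (5.56%, against 1.31%). The same cautions hold for these 5 lists. Beside members that rose, such as Ciart (2.44), matches lay in members that hardly moved or fell, such as Nfe2l2 (0.002), Pgd (0.02) and Tef (-0.65).

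Enzymes that charge tRNA were mostly higher: 18 of 21 tRNA synthetases rose and 3 (Dars, Hars and Fars2, the last a mitochondrial enzyme) were not called, with medians of 0.82 in EBSS and 0.75 in basal medium. The alanine, serine and glycine enzymes (Aars 0.99, Sars 0.97, Gars 0.96) led them. Of 18 enzymes of serine, glycine and one-carbon metabolism 11 were higher and 3 lower. The mitochondrial folate enzymes Aldh1l2 (1.59), Mthfd2 (1.5) and Shmt2 (1.26) and the serine synthesis enzyme Psat1 (1.42) rose, of which Mthfd2, Shmt2 and Psat1 are also on the ATF4 list, and Mthfd2l (-0.54), Tyms (-0.28) and Mat2a (-0.27) fell. The purine synthesis enzymes had 3 higher and 2 lower of 12, close to the share of all genes called higher.

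Genes of cholesterol synthesis stood mostly higher as well. All 26 listed genes of cholesterol synthesis and uptake were tested, 22 higher and 1 lower, with a median of 1.05 in EBSS and 1.25 in basal medium. Fdft1, squalene synthase, at chr14:63145150-63181687, had 967, 881 and 1072 counts in WT and 3954, 4218 and 4259 in Vps15KO, a difference of 2.06 ± 0.07 (limma, adjusted p = 1.56e-13) with no overlap. In basal medium its difference was 1.36 ± 0.07, smaller by 0.70 ± 0.10 (limma, adjusted p = 0.000103). Msmo1 rose by 1.95 ± 0.06, Mvd by 1.69, and Sqle and Fdps by 1.5 each. Insig1, which holds the sterol sensor in the endoplasmic reticulum, had 3301, 3511 and 3812 counts in WT EBSS and 9374, 8865 and 8300 in Vps15KO EBSS. Its WT basal libraries lay lower, at 1241, 1011 and 1313, and its difference was 2.43 ± 0.08 in basal medium and 1.31 ± 0.08 in EBSS (limma, adjusted p = 5.53e-06 for the difference between media). The lower member was Scap, the sensor that escorts the sterol factors (-0.36). Soat2, which esterifies cholesterol, was not on the list and was named for its size, with 66.4, 52.9 and 82.6 counts in WT and 537, 507 and 645 in Vps15KO (2.67 ± 0.15), and Npc1, which exports cholesterol from lysosomes, rose by 1.31 ± 0.06.

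Fatty acid genes split. Of 19 fatty acid synthesis genes 12 were higher and 5 lower, with Acss2 at 1.09, Fads1 at 0.66 and Fasn, fatty acid synthase, at 0.48 on one side and Elovl1 (-0.46) on the other. The median was 0.29 in EBSS and 0.58 in basal medium, and 8 members had a smaller difference in EBSS by the test between media, among them Lpin1, a phosphatidate phosphatase, at -0.25 in EBSS and 0.69 in basal medium. The EBSS call of Lpin1 was lost without WT EBSS replicate 1 (-0.2). Genes of fatty acid oxidation and PPAR targets went the other way: of 29 listed 22 were tested, 4 higher and 15 lower, with a median of -0.33 in EBSS and -0.16 in basal medium. Cpt1a, which admits long-chain fatty acids to mitochondria and lies at chr19:3322326-3385735, had 12335, 12563 and 11078 counts in WT EBSS and 3725, 3580 and 3560 in Vps15KO EBSS. In basal medium it had 3947, 3383 and 3557 in WT and 1605, 1484 and 1465 in Vps15KO. Starved Vps15KO cells were thus at the level of fed WT cells and far below starved WT cells. The difference was -1.72 ± 0.07 in EBSS and -1.24 ± 0.07 in basal medium (limma, adjusted p = 0.00193 for the difference of -0.48 ± 0.09).

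Angptl4, a PPAR target that inhibits lipoprotein lipase, had 721, 711 and 720 counts in WT EBSS and 130, 130 and 140 in Vps15KO EBSS (-2.22 ± 0.13). In Vps15KO basal libraries it was nearly absent, at 1.95, 1.96 and 0 counts, a level at which the sign of the difference between media depended on the scale. The mitochondrial thiolase Acaa2 fell by 0.97, Pdk4, which spares glucose, by 0.60 and Cpt2 by 0.57, while the thioesterase Acot2 rose by 2.26 and Pparg by 0.53. Glycolysis and glucose uptake had 10 higher and 3 lower of 25, and 12 were not called. Hk2, the hexokinase of the entry step, rose from 1529, 1535 and 1654 counts to 5419, 5205 and 4651 (1.68 ± 0.07), Pfkp by 0.90 and the transporter Slc2a1 by 0.87.

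**Figure D3:**
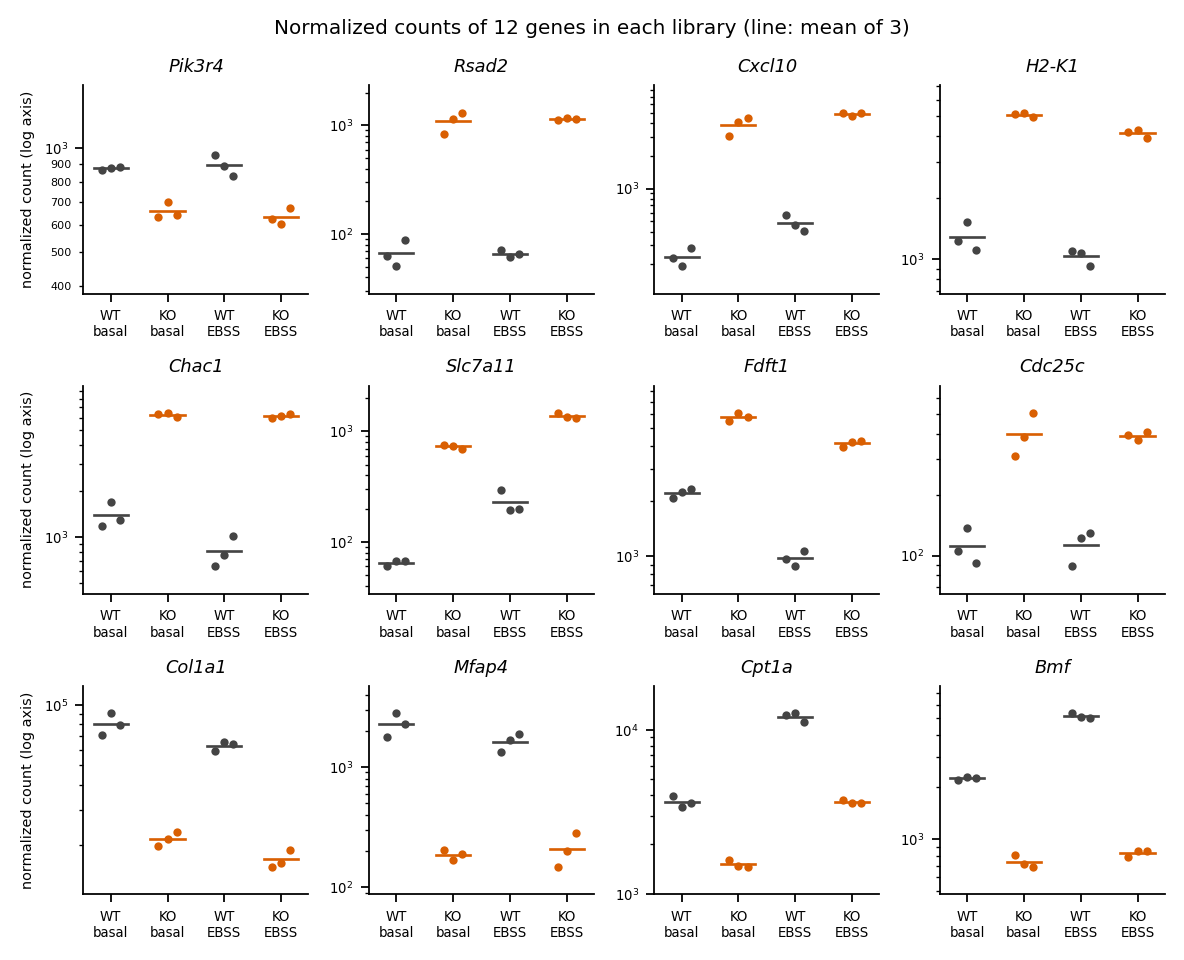
Normalized counts (log axis) of 12 genes in each of the 12 libraries, grouped by genotype (KO, Vps15KO) and medium, with a line at the mean of 3. Rsad2, H2-K1 and Cdc25c are higher in Vps15KO by a similar amount in both media, whereas Cpt1a and Bmf are higher in starved than in fed WT cells and stand lower in Vps15KO.

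Many antioxidant and iron genes were higher. Of 30 tested NRF2 targets 19 were higher and 1 lower (Keap1, the inhibitor of NRF2, -0.26), with a median of 0.42 in EBSS and 0.72 in basal medium. The difference between media was called for 11 members, 10 of them smaller in EBSS, and not called for the other 19. Gsta3 rose by 1.92, the glutathione synthesis enzyme Gclc by 1.42, Txnrd1 by 1.07 and Nqo1 from 737, 765 and 935 counts to 1669, 1768 and 1672 (1.05 ± 0.08). Hmox1, heme oxygenase, did not follow them: it had 11194, 11806 and 12040 counts in WT EBSS and 13282, 12000 and 12236 in Vps15KO EBSS. The groups overlapped, and the difference of 0.10 ± 0.06 was not called (limma, adjusted p = 0.147), although with quantile normalization it was, at 0.233, and with length and GC trends removed, at 0.146. In basal medium the difference had been 1.70 ± 0.06, and the change of -1.60 ± 0.08 between media passed the test (limma, adjusted p = 8.83e-10).

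Of 17 tested iron genes 10 were higher and 3 lower, and the difference between media was called downward for 4, upward for 1 and not for 12. The ferritin chains Fth1 (1.08) and Ftl1 (1.11), which store iron, the reductase Steap1 (167, 127 and 156 counts in WT, 599, 616 and 644 in Vps15KO, 1.88 ± 0.09), the mitochondrial carrier Slc25a37 (1.57) and the importer Slc11a2 (1.53) rose, and Steap3 fell by 1.14. Ferritin and metallothionein genes have near-identical copies, so their values are uncertain. The metallothioneins Mt1 and Mt2, which bind zinc, turned round with the medium. Mt2 had 4789, 3779 and 3939 counts in WT EBSS and 2462, 2374 and 2381 in Vps15KO EBSS, against 599, 741 and 710 and 1652, 1440 and 1567 in basal medium. Vps15KO was thus below WT in EBSS (-0.78 ± 0.09) and above it in basal medium (1.16 ± 0.09), with no overlap in either, and the difference of -1.93 ± 0.12 had an adjusted p of 1.38e-08 in limma. Mt1 stood at -0.82 ± 0.10 and 0.44 ± 0.10, and the zinc exporter gene Slc30a1 at -0.60 ± 0.10 and 0.13 ± 0.10. Among all 17 tested metallothioneins and zinc carriers 6 were higher and 7 lower.

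Cell division genes stood higher in Vps15KO despite starvation. Of 38 mitosis and G2/M genes 37 were higher and 1 (Bub3) was not called, with a median of 0.87 in EBSS and 1.11 in basal medium, where all 38 were higher. Cdc25c, the phosphatase that triggers mitosis, had 88.6, 122 and 130 counts in WT and 395, 370 and 407 in Vps15KO (1.59 ± 0.15; limma, adjusted p = 5.08e-08), with WT EBSS replicate 1 the lowest library. Plk1, a mitotic kinase, had 169, 202 and 199 in WT and 500, 507 and 551 in Vps15KO (1.33 ± 0.10), Ect2 rose by 1.35 and cyclin B1 (Ccnb1) by 1.17 ± 0.12. The libraries do not tell more dividing cells from more RNA per dividing cell, here and in every list that follows. DNA replication and S phase genes were less uniform, with 21 of 40 higher and 6 lower and a median of 0.22. Cdt1 (1.22) and Ccne1 (1.14), which act at the start of S phase, and the helicase subunit Mcm2 (0.87) rose, and Cdc6 (-0.33) and Tyms (-0.28) fell. Without Vps15KO EBSS replicate 2 or WT EBSS replicate 2, 3 were lower.

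Of 40 genes of ribosome biogenesis and RNA polymerase I 33 were higher and 1 lower, by a median of 0.35. Gnl3 rose from 1826, 1730 and 1951 counts to 3683, 3655 and 3606 (0.98 ± 0.06) and Noc2l by 0.88, while Ubtf, the factor that opens ribosomal DNA, was lower by -0.86. Translation factors had 15 higher and 2 lower of 30, Eif2s2 at 1.06 and Eif4g2 at -0.62. The mRNAs of the ribosomal proteins did not move with these lists: of 61, 53 were not called, 1 (Rpl8, 0.24) was higher and 7 were lower, with a median of -0.04. The ribosomal protein counts depended on the setting, with 5 higher and 17 lower under the replicate block and 16 and 3 with quantile normalization. The p53 targets had 15 higher and 3 lower of 27 with a median of 0.33 in EBSS and 0.37 in basal medium. Cdkn1a, which stops the cell cycle, had 1073, 901 and 1052 counts in WT and 1611, 1747 and 1686 in Vps15KO (0.72 ± 0.07), the p53 inhibitor Mdm2 rose by 0.46, and the largest rise was in Plk3 (2.04 ± 0.10 in EBSS, 0.80 in basal medium). Ccng1, Zmat3 and Phlda3, also well-known p53 targets, were not called.

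Matrix genes of the fibroblast were mostly lower. Of 23 listed collagen chains 22 were tested, 17 lower and 2 higher, with a median of -0.71 in EBSS and -0.83 in basal medium. Together the collagen chains made up 1.58% to 1.75% of normalized counts in WT EBSS libraries and 0.708% to 0.745% in Vps15KO. Col1a1, a chain of type I collagen at chr11:94936224-94953042, had 58946, 65427 and 63767 counts in WT and 15622, 16353 and 18917 in Vps15KO (-1.89 ± 0.09; limma, adjusted p = 1.11e-11). Col3a1 had 75775, 96677 and 99070 in WT and 20625, 22565 and 23318 in Vps15KO (-2.02 ± 0.10), with WT EBSS replicate 1 the lowest of its group. For both, even the lowest WT library was more than any Vps15KO library, and the differences in basal medium were -1.90 and -1.85. Col7a1 (0.56), which anchors epithelia, and Col5a3 (0.45) were the higher members.

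Elastic fibre genes showed the same counts, 17 lower and 2 higher of 22, with a median of -0.64. Mfap4, a microfibril protein, had the largest fall of any gene named by the rule, from 1323, 1673 and 1861 counts to 148, 200 and 280 (-2.82 ± 0.17; limma, adjusted p = 1.35e-10), a ratio of 7.73 between WT and Vps15KO. Elastin (Eln) fell by 1.56 ± 0.17, Mfap2 by 1.93, Mfap5 by 1.81 and the assembly protein Emilin1 by 1.80. Of 29 proteoglycans and matricellular proteins 18 were lower and 4 higher, with Aspn at 3852, 4628 and 5644 counts in WT against 873, 1001 and 1065 in Vps15KO (-2.22 ± 0.15), Thbs2 at -1.88, lumican (Lum) at -1.85 and Sparc at -1.01. Decorin (Dcn, -0.24) and fibronectin (Fn1, 0.04) were not called. Matrix proteases and inhibitors had 14 lower and 7 higher of 27. The membrane protease Mmp14 fell from 37949, 37373 and 36983 counts to 17147, 18417 and 17400 (-1.08 ± 0.06), while the collagenase Mmp13 rose from 179, 218 and 229 to 744, 761 and 743 (1.72 ± 0.10). Among the proteases the higher count was 3 with a stricter filter (a mean of 3 above the floor).

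Signals and identity genes of mesenchyme went both ways. Of 26 genes of the BMP and TGF-beta response 13 were lower and 7 higher, Tgfbi at -1.72 ± 0.08 and the signal transducer Smad3 at -1.13 on one side and Smad1 (0.74) and the antagonist Grem1 (0.95) on the other. Receptor tyrosine kinases had 13 lower and 7 higher of 22. Pdgfra, the PDGF receptor that marks fibroblasts, fell from 10652, 10623 and 9622 counts to 5080, 5276 and 4990 (-1.0 ± 0.07), more than in basal medium (-0.60 ± 0.07; limma, adjusted p = 0.0124), and Pdgfrb was lower by -0.71. Epha2 (1.23) and Met (0.69), the receptor for hepatocyte growth factor, were higher. Of 25 tested HOX and mesenchymal lineage genes 11 were lower and 7 higher: Osr2 fell from 2892, 3098 and 2971 counts to 771, 878 and 906 (-1.78 ± 0.08), Prrx2 by 1.69, Hoxa10 by 1.68 and Osr1 by 1.58, and Runx2, the factor of bone formation, rose by 1.01. Integrins were divided, with 5 higher and 7 lower of 18, Itgb7 at 2.08 and Itga11, a collagen receptor of fibroblasts, at -0.93. The imprinted genes H19 (-2.12 ± 0.08) and Peg10 (-2.11 ± 0.12) were among the largest falls, as was Gas1, a surface protein of growth-arrested cells, from 33805, 33242 and 33740 counts to 8143, 7862 and 7236 (-2.11 ± 0.09).

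Fibroblast markers as a list fell with the matrix genes, which they include: 9 of 11 tested were lower and 1 (Fap) was higher, and their summed counts were 426242 to 477283 in WT and 202738 to 216312 in Vps15KO. Thy1, which is often used to sort fibroblasts, was under 10 counts in every EBSS library. Markers of other cells were mixed. Most were under 10 counts, and a few members carried the sums. Of the macrophage and leukocyte markers 8 of 11 were under 10 counts, Ptprc, Adgre1, Itgam and Lyz2 among them and Tyrobp at 0, and the list's sum of 860 to 951 in WT and 2687 to 3370 in Vps15KO was nearly all Cd68. Cd68, a lysosomal membrane protein that cells other than macrophages also make, had 797, 789 and 881 counts in WT and 2616, 2639 and 3292 in Vps15KO (1.75 ± 0.09). Endothelial markers summed to 30.6 to 47.3 counts in WT and 118 to 140 in Vps15KO, most of it Vwf, with Pecam1 under 10. Epithelial markers summed to 72.2 to 87.6 and 64.1 to 78.0, with Epcam and Cdh1 under 10. Neural markers summed to 558 to 685 and 568 to 625, and adipocyte markers to 1168 to 1247 and 655 to 728, with Adipoq and Plin1 under 10. Muscle markers summed to 17048 to 18456 and 8869 to 10749, nearly all Acta2, with Myog and Myf5 at 0. Of the 6 muscle markers tested, Acta2 (-0.91) and Lmod1 (-0.57) were lower, Des (0.67) and Acta1 (0.53) were higher, and Myh11 (0.22) and Cnn1 (-0.26) were not called. Whether a change in the make-up of the cultures has a part in the fall of matrix genes was not tested.

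Actin and YAP targets were on both sides. Of 31 YAP, TAZ and SRF targets 15 were lower and 11 higher, with a median of -0.26. Myl9, a light chain of smooth muscle myosin, fell from 4783, 4441 and 4733 counts to 1800, 1725 and 2151 (-1.29 ± 0.10), and Acta2, smooth muscle actin, was lower by -0.91 ± 0.10. Cnn1 (-0.26), which binds actin, was not called. Ptgs2, cyclooxygenase 2, rose from 675, 712 and 689 counts to 2847, 2777 and 2401 (1.90 ± 0.11) and Ankrd1 by 1.2. The secreted YAP targets Ccn1 and Ccn2 overlapped between groups: Ccn1 had 1445, 1832 and 2555 counts in WT and 2236, 2365 and 2852 in Vps15KO. Without WT EBSS replicate 1, the lowest WT library, Ccn1 went from 0.38 to 0.189 and Ccn2 from 0.41 to 0.186 and neither was called, and 5 members of the list were higher. Without Vps15KO EBSS replicate 3, Ccn1 (0.278) and Ccn2 (0.282) were not called either, nor was Ccn1 without WT EBSS replicate 2 (0.357), and 7 members were higher. The median of the list was 0.0627 with a stricter filter (a mean of 3 above the floor), which tests fewer members.

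The test of the difference between media asked which of these genotype differences depended on the medium. It called 1363 genes (9.55%) as higher in EBSS relative to basal medium and 1177 (8.24%) as lower. Of the genes called higher in EBSS, 1083 were not called in basal medium, and for 410 of these the difference itself was called. The opposite call in basal medium was made for 171. Of the genes called lower in EBSS, 1060 were not called in basal medium, 327 of them with the difference called, and 85 had the opposite call.

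**Figure D4:**
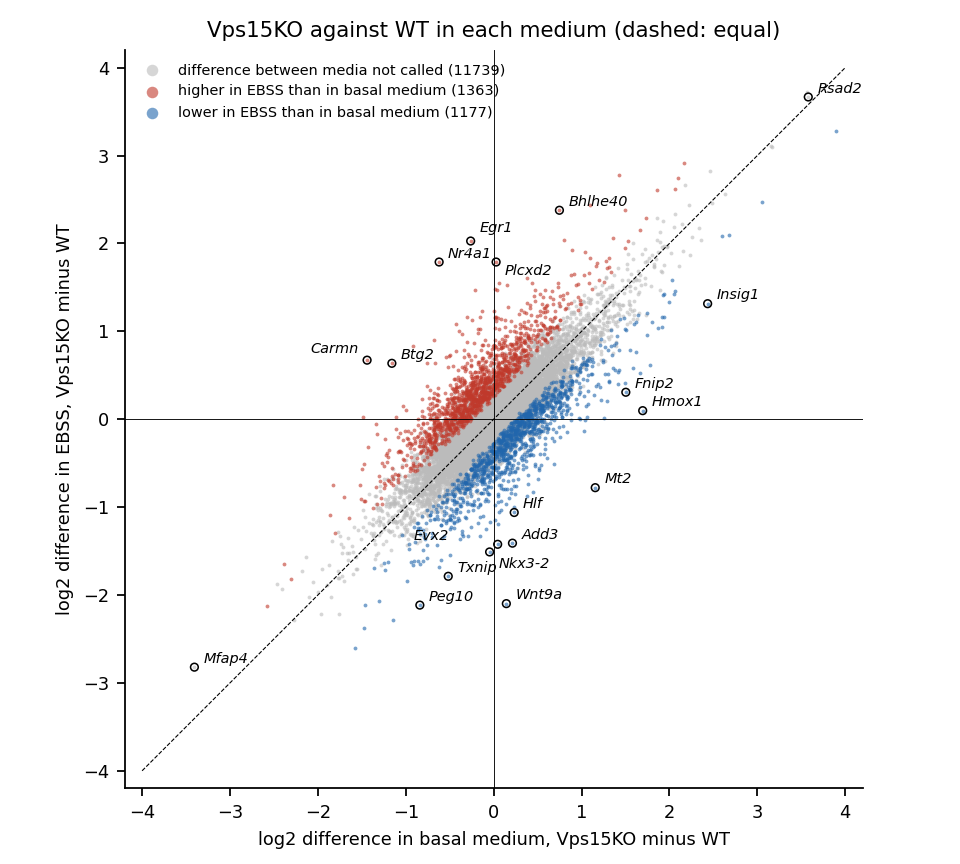
Log2 difference between Vps15KO and WT in EBSS (vertical axis) against that in basal medium (horizontal axis) for 14279 genes, coloured by the call of the difference between media, with a dashed line where the 2 are equal. Rsad2 lies near the line, Nr4a1 and Egr1 at the upper left, and Wnt9a and Mt2 at the lower right of the centre.

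Immediate early genes, the first transcripts to answer growth factors and stress, led the rises particular to EBSS by that test. Nr4a1, an orphan nuclear receptor at chr15:101253902-101274795, had 1774, 1653 and 2040 counts in WT EBSS and 5623, 6215 and 7298 in Vps15KO EBSS. In basal medium WT stood at 3033, 3034 and 2966 and Vps15KO at 2127, 1863 and 1868. Starved WT cells were thus below fed WT cells, starved Vps15KO cells above every other group, and the genotypes did not overlap in either medium. The genotype difference was 1.79 ± 0.09 in EBSS and -0.62 ± 0.09 in basal medium, 2.41 ± 0.12 apart (limma, adjusted p = 8.83e-10). Egr1, a zinc finger factor downstream of ERK, had 1319, 1395 and 1510 counts in WT EBSS and 5369, 5504 and 6672 in Vps15KO EBSS, and its differences of 2.03 ± 0.09 and -0.26 ± 0.09 lay 2.29 ± 0.13 apart (limma, adjusted p = 1.89e-09).

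Of all 32 immediate early genes 24 were higher and 4 lower in EBSS, with a median of 0.77, against 11 and 11 in basal medium, with a median of 0.02. The difference between media was called upward for 20 of them and downward for 3. Fos had 78.5, 102 and 104 counts in WT EBSS and 162, 151 and 170 in Vps15KO EBSS (0.64 ± 0.10 in EBSS, -0.67 ± 0.10 in basal medium), and Btg2, which restrains proliferation, stood at 0.64 and -1.16. Fosl1, a partner of Jun proteins, rose in both media, by 2.61 ± 0.08 in EBSS and 1.86 ± 0.08 in basal medium. Myc went from 1105, 1019 and 1180 counts to 3404, 3075 and 3555 (1.58 ± 0.07 in EBSS, 1.2 in basal medium). The lower members were Klf2 (-0.55), Jun (-0.37), Jund (-0.30) and Btg1 (-0.23).

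Listed feedback genes of the ERK pathway, many of whose products remove phosphate from ERK or related MAP kinases or block their activation, were mostly higher too. Of 19, 13 were higher and 4 lower, with medians of 0.64 in EBSS and 0.12 in basal medium, and the difference between media was called upward for 10 and downward for 1. The phosphatase genes Dusp4 (2.62 ± 0.11), Dusp16 (1.55), Dusp8 (1.55 in EBSS, 0.06 in basal medium) and Dusp6 (1.26 and 0.41) rose, and Spry1 (-0.79) and Dusp7 (-0.48) fell. Hes1, the repressor that follows Notch signalling, had 120, 105 and 130 counts in WT EBSS and 864, 1009 and 1038 in Vps15KO EBSS, a difference of 2.78 ± 0.12 against 1.42 ± 0.12 in basal medium (limma, adjusted p = 1.96e-05 for the difference between media).

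Among clock genes, 10 of 19 were higher and 3 lower, and the repressors led. Ciart had 164, 155 and 177 counts in WT and 990, 996 and 1065 in Vps15KO (2.44 ± 0.08 in EBSS, 1.10 ± 0.08 in basal medium). Bhlhe40, also a target of hypoxia and starvation signals, had 3737, 4244 and 4656 counts in WT and 21060, 22158 and 22604 in Vps15KO (2.38 ± 0.08 in EBSS, 0.75 ± 0.08 in basal medium). Per1 stood at 412, 549 and 552 in WT EBSS, 1075, 1230 and 1337 in Vps15KO EBSS, 1466, 1574 and 1334 in WT basal and 1217, 1347 and 1418 in Vps15KO basal libraries. Its WT EBSS libraries alone were low, the genotypes overlapped in basal medium, and the difference between media was 1.36 ± 0.14 (limma, adjusted p = 5.53e-06). The output factors Hlf (-1.06) and Tef (-0.65) were lower, and the activator Arntl (-0.14) was not called. For Per2 (-0.26), too, no call was made in EBSS.

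Other genes named for the size of the upward difference between media were the phospholipase-like gene Plcxd2 (1.79 in EBSS, 0.03 in basal medium), the tripartite motif gene Trim46 (1.47 and -0.21) and the long noncoding RNAs Carmn (0.67 and -1.44) and Bvht (0.83 and -0.91). Carmn and Bvht lie close to each other, so with the strand used in counting not stated their reads may not be fully separate from those of neighbours. In Carmn, Btg2 and Bvht, WT basal libraries were the highest of all 4 groups and WT EBSS libraries the lowest.

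**Figure D5:**
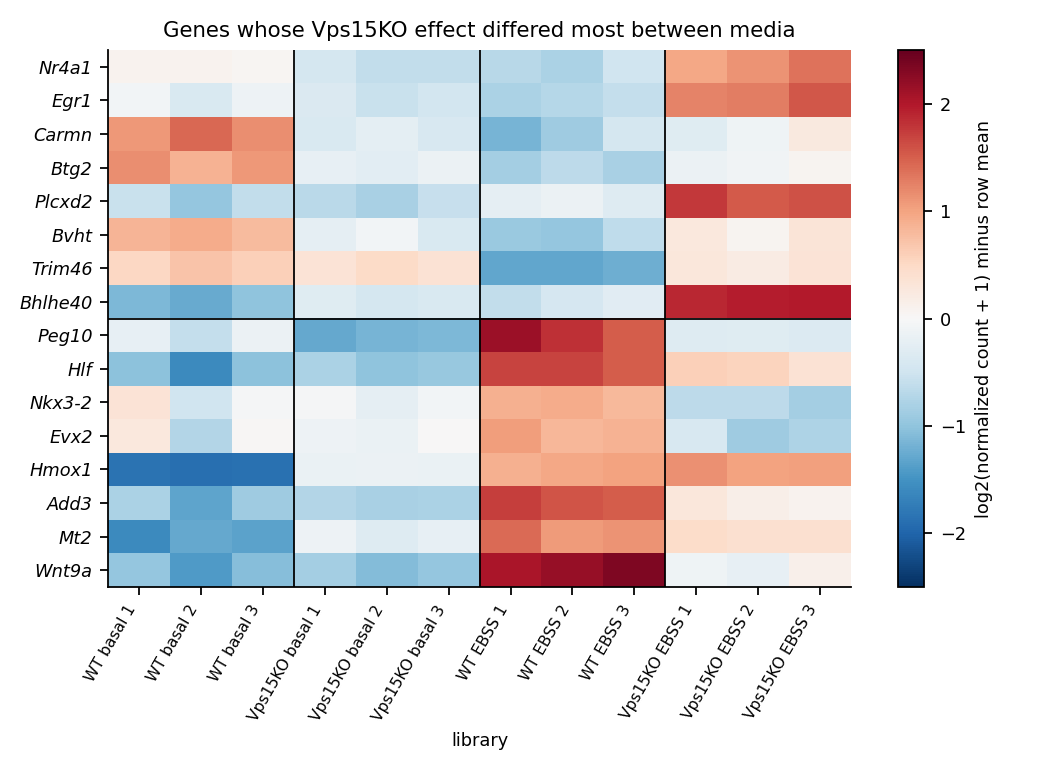
Level of 16 genes in each of the 12 libraries, as log2(normalized count + 1) minus the mean of the gene over all libraries (colour scale), for the 8 largest upward (top) and 8 largest downward (bottom) differences between media. In the lower block the WT EBSS libraries are the highest group except for Hmox1, whose WT and Vps15KO EBSS libraries are alike.

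Downward, the largest difference was in Wnt9a, a Wnt ligand at chr11:59306849-59333552. It had 784, 862 and 963 counts in WT EBSS and 175, 164 and 208 in Vps15KO EBSS, against 96.2, 70.9 and 90.0 in WT basal and 105, 89.2 and 96.1 in Vps15KO basal libraries. Starved WT cells stood far above the other 3 groups, starved Vps15KO cells moderately above the fed ones. The differences were -2.10 ± 0.11 in EBSS and 0.14 ± 0.11 in basal medium (-2.24 ± 0.15 apart; limma, adjusted p = 3.57e-08). Add3, an adducin of the membrane skeleton, showed this order too, with 6505, 5839 and 5628 counts in WT EBSS, 2400, 2199 and 2110 in Vps15KO EBSS and 789 to 1187 in the 6 basal libraries. The homeobox genes Evx2 (-1.42 in EBSS, 0.05 in basal medium) and Nkx3-2 (-1.51 and -0.05), the clock factor Hlf and Peg10 completed the set. Of 15 tested Wnt ligands and targets, the difference between media was called downward for 2, Wnt9a and Znrf3 (-0.20 in EBSS, 0.52 in basal medium), and upward for 3, among them the ligand Wnt5b (-1.13 and -1.64). The inhibitor gene Dkk2 stood at -1.70 and -1.96.

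FOXO targets, which rise when growth factor signalling is low, followed the direction of Wnt9a in part. Of 24 listed 23 were tested, 8 higher and 11 lower, with a median of -0.16 in EBSS and 0.08 in basal medium, and the difference between media was called downward for 13 and upward for 5. Cell death genes were on both sides. Bmf, a BH3-only activator of cell death at chr2:118528757-118549686, had 5332, 5117 and 5041 counts in WT EBSS and 790, 848 and 848 in Vps15KO EBSS, 6.23 times as much in WT. In basal medium WT had 2200, 2275 and 2265 and Vps15KO 807, 712 and 692. The Vps15KO level was thus alike in the 2 media, and the difference of -2.60 ± 0.06 in EBSS (limma, adjusted p = 3.07e-15) exceeded the -1.58 ± 0.06 of basal medium. Bcl2l11 (Bim), of the same class, had 2992, 2600 and 2460 counts in WT EBSS and 876, 896 and 927 in Vps15KO EBSS (-1.54 ± 0.08; -0.50 ± 0.08 in basal medium). Bbc3 (Puma) went the other way, with 275, 277 and 327 against 668, 723 and 654 (1.15 ± 0.09; 0.02 ± 0.09 in basal medium). The survival genes Bcl2l1 (0.71) and Mcl1 (0.65) were higher. The cell cycle inhibitor Cdkn1b (-0.79) and the PI3K inhibitor gene Pik3ip1 (-0.95) were lower, and the ubiquitin ligase genes of muscle atrophy differed, Trim63 at 1.33 and Fbxo32 at 0.15. Fbxo32 was not called, but was higher (0.227) without WT EBSS replicate 1 and (0.203) without Vps15KO EBSS replicate 3.

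Txnip, which limits glucose uptake and answers glucose, had 8049, 9826 and 9438 counts in WT EBSS and 2311, 2703 and 2844 in Vps15KO EBSS, and 16896, 16713 and 16800 in WT basal and 11580, 11530 and 12111 in Vps15KO basal libraries. Vps15KO was below WT in both media, by -1.79 ± 0.08 and -0.52 ± 0.08, and further below in EBSS (limma, adjusted p = 4.66e-07). Its relative Arrdc3 stood at -1.27 and -0.36, while Arrdc4, also a glucose-responsive arrestin, was higher at 0.71 and 0.51.

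In the complex that holds Vps15, most partner transcripts were higher. Of 8 tested members of the class 3 PI3K complexes 5 were higher and 1, Pik3r4, was lower. Atg14, the subunit of the autophagy complex, had 1761, 1876 and 1812 counts in WT and 2916, 2729 and 2641 in Vps15KO (0.60 ± 0.06; limma, adjusted p = 1.83e-07). The inhibitor gene Rubcn rose by 0.74, Nrbf2 by 0.61, Ambra1 by 0.38 and Uvrag, the endosomal counterpart of Atg14, by 0.33 ± 0.07. The kinase Pik3c3 had 1170, 1125 and 1184 counts in WT and 1100, 1085 and 1051 in Vps15KO, groups that did not overlap but whose difference of -0.10 ± 0.06 was not called (limma, adjusted p = 0.141). Pik3c3 was called lower with equal medians (-0.145) and with length and GC trends removed (-0.142), which made 2 lower members of the list. Becn1, not called, stood at 0.14 ± 0.07 (limma, adjusted p = 0.0893).

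Core autophagy genes were spread around 0. Of 32, 12 were higher and 8 lower, with a median of 0.04, and 7 were higher without Vps15KO EBSS replicate 1. Over all genes tested 29.4% were higher and 27.8% lower. Atg2b, a lipid transfer protein, rose by 0.54 and Gabarapl1 by 0.34. The kinase that starts autophagy, Ulk1, had 2835, 2772 and 2613 counts in WT and 2162, 2067 and 2263 in Vps15KO (-0.34 ± 0.06), Ulk2 stood at -0.45, Zfyve1, which binds PI3P, at -0.60, and Map1lc3b (LC3B) at -0.30. Among 14 receptors 4 were higher and 6 lower. Sqstm1 (p62), which is both an autophagy cargo receptor and an NRF2 target, had 54071, 51270 and 52033 counts in WT EBSS and 64265, 58854 and 58647 in Vps15KO EBSS. Its 0.21 ± 0.07 in EBSS was far under the 1.29 ± 0.07 of basal medium (limma, adjusted p = 1e-06 for the difference). The EBSS call was lost without Vps15KO EBSS replicate 1 (0.164), without WT EBSS replicate 2 (0.191) and with equal medians (0.164). Optn rose by 0.95, and the receptor of the endoplasmic reticulum Ccpg1 fell by 0.52.

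Lysosomal genes were similarly divided: of 34, 12 were higher and 8 lower, with Npc1 and the galactosidase gene Gla (1.02) at the top and the protease gene Ctsf (-0.78) at the bottom. Both counts were near the shares over all genes tested, 29.4% higher and 27.8% lower. Lamp1, the main membrane protein, rose from 29168, 30422 and 28807 counts to 41390, 41885 and 38548 (0.46 ± 0.07). Ctsd, the protease cathepsin D, was at 78867, 85950 and 82735 in WT and 79089, 83739 and 84403 in Vps15KO and was not called, though with quantile normalization it stood at 0.269 and 19 members of the list were higher. V-ATPase subunits, which acidify the lysosome, had 8 higher and 3 lower of 16, with a median of 0.21 in EBSS and 0.42 in basal medium. In the folliculin and Rag branch of amino acid sensing 8 of 16 were higher and 4 lower. Rragd rose by 1.05, Flcn from 5376, 5435 and 5676 counts to 8573, 8148 and 8161 (0.59 ± 0.06), and Fnip2 by 0.31 ± 0.06, against 1.5 ± 0.06 in basal medium (limma, adjusted p = 8.47e-08). Tfeb, the factor that drives lysosomal genes, overlapped between genotypes in EBSS (-0.09 ± 0.08, not called) and was lower in basal medium (-0.66 ± 0.08). The lower count of the branch was 2 or 1 without any single EBSS library. Of 25 genes of mTORC1, TSC, GATOR and the Sestrins 8 were higher and 8 lower, Sesn2 at one end and Sesn1 (-0.94) at the other, and Mtor itself was lower by -0.59.

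On endosomes, where PI3P is also made, 13 of 38 retromer, sorting nexin and ESCRT genes were higher and 4 lower, with a median of 0.10 in EBSS and 0.24 in basal medium. The higher count was near the share over all genes tested (29.4%), and the lower count was under it (27.8%). Mtm1, myotubularin, the phosphatase that removes PI3P, at chrX:71210767-71315413, had 172, 187 and 187 counts in WT and 831, 822 and 837 in Vps15KO, a difference of 2.04 ± 0.16 (limma, adjusted p = 3.43e-09) with narrow spread and no overlap, and 2.36 ± 0.16 in basal medium. The tether Eea1, which binds PI3P, rose by 0.73, the ESCRT subunit Vps37a by 0.94 and the retromer subunit Vps35 by 0.58. The lower count was 1 without WT EBSS replicate 1 or Vps15KO EBSS replicate 2, and 2 without Vps15KO EBSS replicate 1 or WT EBSS replicate 2.

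Transcripts of the respiratory chain were lower by small amounts. Of 36 nuclear genes 20 were lower and 1 (Cox5a, 0.20) was higher, with a median of -0.24 in EBSS and -0.19 in basal medium, Uqcrh at -0.60 and Ndufb7 at -0.56. Of 13 mitochondrially encoded mRNAs 4 were lower and 1 higher, with a median of -0.31, but these depended on WT EBSS replicate 1. CYTB had 29920, 54654 and 58549 counts in WT and 25179, 23331 and 26400 in Vps15KO (-0.87 ± 0.18), and COX1 120996, 187996 and 205919 in WT and 219164, 209779 and 217400 in Vps15KO (0.36 ± 0.15). For both, WT EBSS replicate 1 was far below its group. Without it 10 of 13 were lower with a median of -0.561, and COX1 was not called (0.131), as it was not without any other single EBSS library of Vps15KO.

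The unfolded protein response of the endoplasmic reticulum did not rise with the ATF4 targets: 10 of 25 were higher and 11 lower, with the sensors Ern1 (0.74) and Atf6 (0.69) higher and the chaperones Manf (-0.61), Calr (-0.47) and Hspa5 (BiP, -0.22) lower. Without WT EBSS replicate 2, 7 were lower and Hspa5 (-0.171) was not called. Heat shock proteins had 13 higher and 3 lower of 22, Hspa9 and Hspa4l at 1.14 and 1.30, and proteasome subunits 9 higher and 5 lower of 36. Among chromatin genes, 11 of 38 ATP-dependent remodellers were higher and 18 lower, Baz1a at 1.28, Chd7 at 1.04, Smarca1 at -0.89 and Smarca2 at -0.83. Histone acetylation enzymes and readers had 10 higher and 14 lower of 36: the corepressor gene Ncor1 (0.71) and the deacetylase gene Sirt1 (0.67) were higher and Kat6b (-0.89) lower, and the acetyltransferases Ep300 (-0.07) and Kat5 (-0.02) were not called. Histone methyltransferases and demethylases had 14 higher and 6 lower of 40, Nsd3 at 0.68 and Setd1b at -0.93. The counts of all these lists stand beside 29.4% higher and 27.8% lower over all genes tested.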

How the data were processed

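RNA was measured as poly-A transcripts in 12 libraries of mouse embryonic fibroblasts, 3 per genotype and medium, read in pairs on a DNBSEQ-G400 after strand marking, per the labels' protocols. STAR 2.7.10b, featureCounts, DESeq2 and limma and the build mm10 are named in the submitters' processing notes, with no roles; the annotation and the use of strand in counting are not given in the sources used here. The deposited table holds log2 values after a variance-stabilizing transform of 32721 genes. Its lowest value, 3.828, marks a count of 0. Inverting the transform gave whole reads, within 0.001, for 100% of values in every library; all 12 libraries held 21278921 to 21698584 reads in genes. These reads are not independent molecules, so their precision covers counting error only.

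The log2 values were fitted in limma 3.58.1 (R 4.3.3) with a mean per group over all 12 libraries and a variance trend, for the 14279 genes with a mean of at least 1 above the floor. Tests are two-sided, with Benjamini-Hochberg adjustment. The interaction term tested the difference of the genotype effect between media. The fit was checked on simulated data with independent noise, a spread set by level alone and no library that stands apart. That check cannot vouch for the calls in these libraries. The text names, by rule, Pik3r4, the 15 largest rises and falls in EBSS among called genes without overlap, the 8 largest differences each way between media, up to 6 members per list with the smallest p, and set key members; other list members are given as examples chosen after their values were seen. The members and lists were chosen with earlier results of these data known. Symbols were matched to RefSeq GRCm38.p6, which gave the coordinates and promoters. Replicate numbers were not taken as pairs in the main fit. Alternatives were other filters, scalings, thresholds, voom on the recovered reads, library weights, a replicate block, length and GC trends, and leaving out each library. A few list members are not reported here by name.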

Additional observations from a re-analysis of the deposited data

Results flagged for a closer look

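The Vps15KO effect differed between EBSS and basal medium, by the interaction term in limma at an adjusted p under 0.05, for 1363 genes upward in EBSS and 1177 downward. The values that follow are log2 differences, the effect in EBSS minus that in basal medium, for genes named in the text or by the same rule.

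Among immediate early, feedback and clock genes the difference was 2.41 for Nr4a1, 2.29 for Egr1, 1.79 for Btg2, 1.63 for Bhlhe40, 1.36 for both Hes1 and Per1, 1.31 for Fos, 0.77 for Nr1d1, 0.75 for Fosl1 and 0.55 for Dusp4. It was 2.11 for Carmn, 1.76 for Plcxd2, 1.75 for Bvht and 1.67 for Trim46. The YAP targets Ccn1 (1.14) and Ccn2 (0.83) moved upward too. In the amino acid and interferon responses it was 0.75 for Chac1, 0.73 for Isg15, 0.64 for both Atf4 and Trib3 and 0.55 for Ddit3, and downward -0.61 for Cxcl10 and -0.59 for Slc7a11. Tfeb (0.57), Flcn (0.4) and H19 (0.45) were also upward.

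Downward, Wnt9a stood at -2.24, Mt2 at -1.93, Add3 at -1.62, Hmox1 at -1.6, Evx2 at -1.47, Nkx3-2 at -1.46, Hlf at -1.29 and Peg10 at -1.28. Metal, lysosome and autophagy genes followed, with Mt1 at -1.27, Slc30a1 at -0.73, Fnip2 at -1.2, Sqstm1 at -1.08 and Ulk1 at -0.39. Among metabolic genes and FOXO targets the values were -1.27 for Txnip, -1.12 for Insig1, -0.94 for Lpin1, -0.46 for Foxo1 and -0.31 for Fbxo32. Bmf (-1.02), Skida1 (-1.14), Pcdh18 (-0.9), Cldn19 (-0.76) and Gas1 (-0.65) were lower in Vps15KO in EBSS by more than in basal medium. The call of Cxcl10 changed in 10 of 23 alternative settings, that of Ddit3 in 9, of Dusp4 in 4, of Fbxo32 in 12 and of Trib3 in 10. Without WT EBSS replicate 1 the calls of Cxcl10, Ddit3, Fbxo32 and Trib3 were lost. That of Cldn19 was lost with log2(count + 1) values (-0.619) and with voom (-0.568), and that of H19 without Vps15KO basal replicate 3 (0.377).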

How the results depend on the processing

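With a log2 difference of at least 1 required, the calls were 450 higher and 298 lower in EBSS, 421 and 275 in basal medium, and 65 and 53 for the difference between media. At an adjusted p under 0.01 the difference between media was called for 707 and 520 genes, and with library weights for 1805 downward. Leaving out each of the 12 libraries gave 3769 to 4586 higher and 3556 to 4430 lower in EBSS, 3678 to 4175 and 3702 to 4166 in basal medium, and 1023 to 1659 and 832 to 1516 for the difference. With the replicate number as a block these were 4395 and 4189, 4391 and 4376, and 1687 and 1609. With group means removed, same-numbered EBSS libraries of the 2 genotypes had correlations of 0.124, 0.039 and 0.118, and differently numbered ones -0.111 to -0.012. In basal medium the same-numbered ones had 0.0905, 0.26 and 0.0825, and the others -0.212 to 0.106. The main fit did not take the numbers as pairs, and whether they are pairs was not settled. The EBSS counts were 3700 and 4474 with equal medians, and 4439 and 4202 without both WT libraries that stand apart, chosen after seeing the data. Ctsd turned to 0.269 with quantile normalization, and the difference of Angptl4 between media to 1.75 and 2.25 on 2 count-based scales; the cause was not tested. Genes with few reads are limited by depth.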
